A study of Mus musculus with 6 samples.

Results

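The heat shock proteins and molecular chaperones of hippocampal microglia were followed through a comparison of cells sorted by their load of neutral lipid. The set was defined by gene symbol alone, as every gene whose symbol begins with Hsp followed by a, b, d, e, h or a digit, with Dnaja, Dnajb or Dnajc, or with Cct or Bag followed by a digit. This pattern took 85 of the 15912 genes listed. By family, assigned from the symbol alone, these were 11 HSP70 genes, 3 HSP110 genes, 3 HSP90 genes, 7 small heat shock protein genes, 2 genes of the mitochondrial chaperonin, 8 subunits of the cytosolic chaperonin CCT, 4 DNAJA, 12 DNAJB and 27 DNAJC cochaperones, 6 BAG genes and 2 other genes, Hspbp1 and Hspbap1. Of the 85 genes, 78 had at least 10 normalized counts in at least 3 of the 6 libraries and were tested. The 7 that were not tested were Cct6b, Dnajb3, Dnajc5b, Dnajc6, Dnajc22, Hspb7 and Hspb9.

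The 2 groups were BODIPY-high and BODIPY-low microglia, with 3 libraries each, from male C57BL/6 mice of 3 months. All of these mice had received the bacterial endotoxin lipopolysaccharide (LPS), 1 mg/kg into the peritoneum over 4 days, and were perfused 24 h after the last dose, so the comparison is within LPS-treated animals and no saline group was analysed here. BODIPY is a fluorescent dye of neutral lipids, and the gates divided about 10000 live cells, CD11b positive and low for CD45, per sample into lipid-droplet-rich and lipid-droplet-poor microglia, with the hippocampi of 2 mice pooled for a sample. RNA was copied with the Smart-seq v4 kit and made into libraries with Nextera XT, which does not mark the strand of a transcript, and no label says whether libraries of a gate came from separate pools, so a p-value speaks of the spread between the libraries, which may be technical.

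Molecular chaperones hold, fold and release other proteins. HSP70 binds unfolded stretches in an ATP-driven cycle that J-domain proteins (the DNAJ families) start and that nucleotide exchange factors (HSP110 and BAG proteins) end, HSP90 matures signalling proteins that HSP70 passes on, the chaperonins enclose their substrates in a barrel, and the small heat shock proteins hold unfolding proteins without ATP. Under heat, toxins or tissue handling the transcription factor HSF1 switches on a subset of these genes, of which Hspa1a and Hspa1b are the classical members, while others such as Hspa8 are made at all times and a further group, led by Hspa5, answers to unfolded protein in the endoplasmic reticulum.

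The 6 libraries held 34899413 to 39220494 reads assigned to genes, and values below are counts divided by a size factor per library (0.912 to 1.09), called normalized counts. All 10 microglial markers were detected in all libraries, and their summed level was 1809080.1 to 2468817 in BODIPY-high against 2308100.2 to 2704315 in BODIPY-low libraries. None of the 10 was called by limma or edgeR, but Olfml3 was called lower by DESeq2 (adjusted p = 0.0133) and with the library number as a block (0.0111), with 122929, 106524 and 93938 normalized counts in BODIPY-high and 159891, 139897 and 139022 in BODIPY-low libraries (log2 difference -0.45 ± 0.14, adjusted p = 0.217 by limma). Markers of some other cells moved with the gate. All 8 choroid plexus markers were called higher (39706 to 52179.5 summed normalized counts in BODIPY-high, 306 to 2311 in BODIPY-low libraries), with Folr1, Aqp1 and Kcne2 at 0 in at least 1 BODIPY-low library, and so were 8 of 10 markers of border-associated macrophages (22714 to 84246 in BODIPY-high, 2606 to 7596 in BODIPY-low libraries), 3 of 7 astrocyte, 2 of 5 ependymal, 1 of 7 oligodendrocyte, 1 of 4 mural and fibroblast and 1 of 2 erythroid markers tested, against 0 of 9 endothelial, 0 of 4 neuronal and 0 of 10 monocyte and neutrophil markers. At an unadjusted p under 0.05 those last 3 lists had 0, 1 and 3 members, and DESeq2 called 1 monocyte and neutrophil marker, where edgeR called none. With the library number as a block, the markers called higher numbered 10 of 10 for border-associated macrophages, 5 of 7 for astrocytes, 3 of 5 for ependyma, 2 of 7 for oligodendrocytes, 2 of 2 for erythroid cells and 2 of 10 for monocytes and neutrophils, and the counts of the other lists of markers of other cells were as without it. In such bulk samples, a larger share of another cell type and more RNA of a gene per cell cannot be told apart. Libraries also shared features by their number. Deviations from the gate means correlated at 0.244 to 0.363 between the BODIPY-high and BODIPY-low libraries of 1 number, and at -0.255 to -0.0951 between libraries of different numbers, over 12767 genes. The libraries numbered 3 were the highest of their gate for 15 of 20 immediate early genes in both gates, and the share of all genes for which this held was not counted.

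Between the BODIPY-high and BODIPY-low libraries 1 chaperone gene was called, the small heat shock protein Hspb8, which was 15.0-fold higher in the BODIPY-high gate. Its call was lost without BODIPY-high library 2 or 3. No other member was called, and no member was called lower (limma, adjusted p under 0.05 over 12767 genes). With 3 libraries per gate, a member that was not called was not thereby shown to be equal. The count of 1 of 78 tested members called higher stands beside 259 of all genes, or 2.03%, and the count of 0 called lower beside 3 of all genes, or 0.0235%. edgeR called the same gene and no other (1.74% of all genes higher, 0.00783% lower), and so did DESeq2 (3.63% higher, 0.251% lower). Before adjustment, a p under 0.05 was found for 4 members with higher values (Hspb8, Hspa4l, Hspd1 and Hspbp1, where all genes gave 8.03%) and for 1 with lower values (Dnajb9, where all genes gave 2.27%). With the library number as a block, 3 members were called higher, Hspb8, Hsph1 and Hspa4l, where all genes gave 4.37%, and 0 were called lower, where all genes gave 0.462%.

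Most members had small estimates of the difference between gates. The median log2 difference (BODIPY-high minus BODIPY-low) of the 78 tested members was 0.03, beside -0.0043 for all genes tested. The estimates of 69 of the 78 differed by less than 0.5 on the log2 scale, and the share of all genes that did so was not counted. For 64 members, or 82.1%, the 95% interval lay within -1 to 1 on the log2 scale, where all genes gave 72.5%. The difference was positive for 46 members, or 59%, where all genes gave 49.2%. All BODIPY-high libraries lay above all BODIPY-low libraries for 7 members (Bag2, Cct7, Hspa8, Hspb1, Hspb8, Hspbp1 and Hspd1), where 10.4% of all genes did so, and below them for 4 (Dnajb9, Dnajc25, Dnajc28 and Hspb3), where 5.95% did. All 85 genes together took 0.917, 0.851 and 0.899% of the normalized counts of BODIPY-high libraries 1, 2 and 3, against 0.827, 0.832 and 0.794% in BODIPY-low libraries 1, 2 and 3, and the gates did not overlap in this share. The 4 members of highest mean, Hspa5, Hspa8, Hsp90b1 and Hsp90ab1, none of which was called, made up 94.7% of the difference between the mean sums, and the other 81 members took 0.378, 0.388 and 0.417% in BODIPY-high against 0.366, 0.389 and 0.3999% in BODIPY-low libraries, with overlap.

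**Figure D1:**
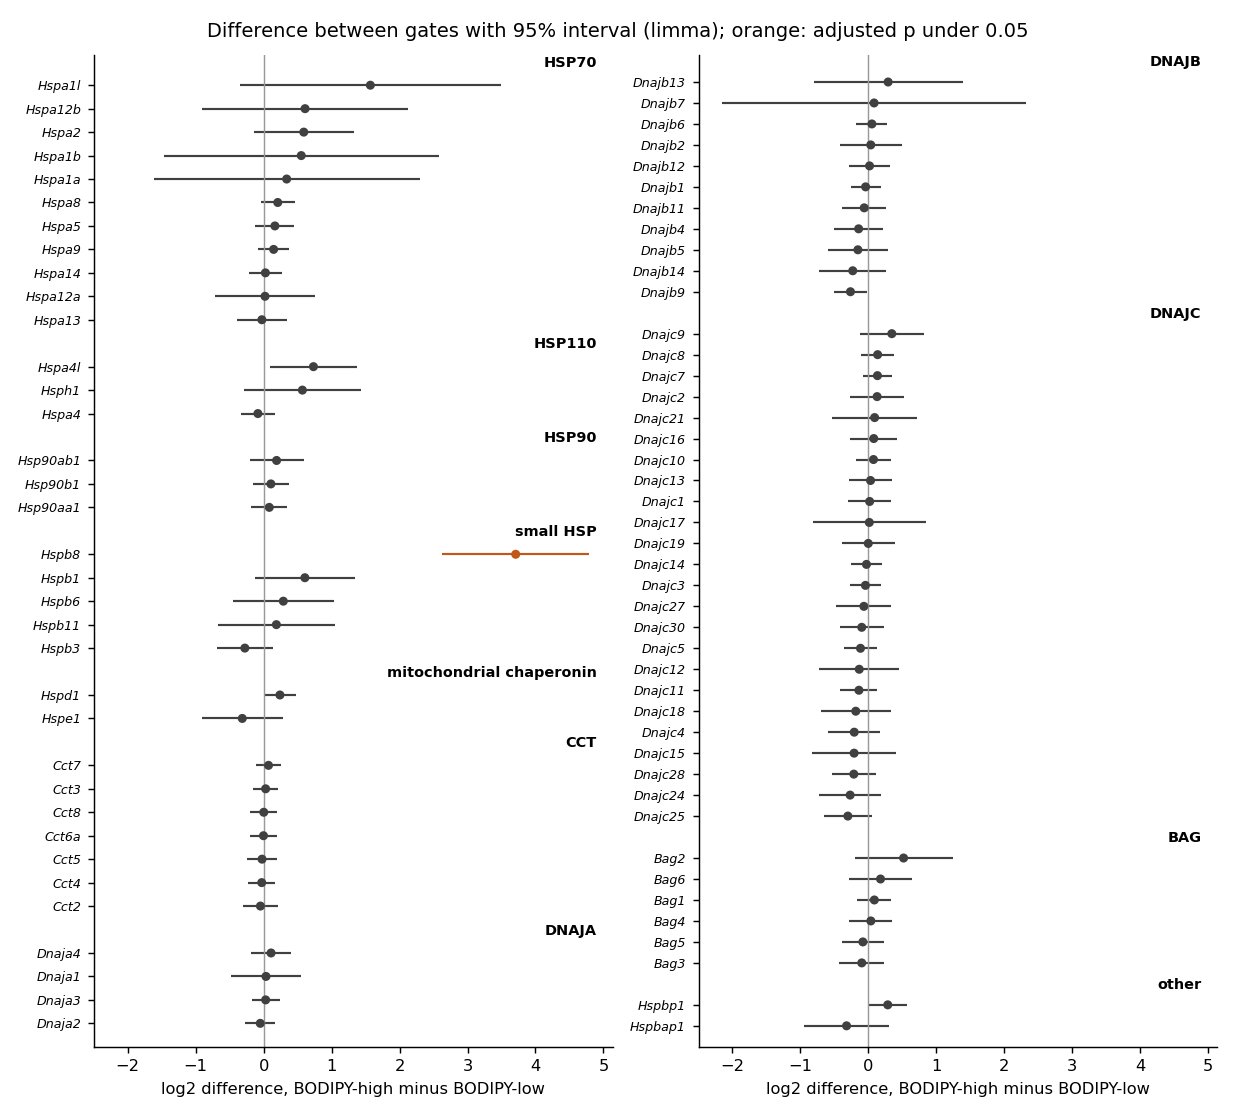
Log2 difference between the gates (x axis, BODIPY-high minus BODIPY-low) for the 78 tested genes by family (y axis), with points for the limma estimate and lines for its 95% interval over 3 libraries per gate. Hspb8, in orange, is the 1 gene with an adjusted p under 0.05, and 64 of the 78 intervals lie within -1 to 1.

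Levels per kb of exon spanned more than 3 powers of 10 among the members. Hspa5, the HSP70 of the endoplasmic reticulum, stood highest, with a mean of 15153 and 13533 normalized counts per kb in BODIPY-high and BODIPY-low libraries. Next came Hspa8, the constitutive cytosolic HSP70, with 12839 and 11149, then Hsp90b1, the HSP90 of the endoplasmic reticulum, with 10377 and 9604, and Hsp90ab1, the constitutive cytosolic HSP90, with 7455 and 6478 normalized counts per kb in the 2 gates. These genes are the housekeeping chaperones of the cytosol and the secretory route, and they headed the list in the same order in both gates. The 7 tested CCT subunits formed a narrow band, from 797 (Cct3) to 1994 (Cct8) in BODIPY-high and from 779.7 to 1991 in BODIPY-low libraries. The heat-inducible HSP70 genes were far lower, with 129 and 83.0 normalized counts per kb for Hspa1a and 139.7 and 108 for Hspa1b, and Hspb8 had 67.5 and 4.50. The levels of Hspa1a and Hspa1b, which share much of their sequence, may be too low, as given below.

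**Figure D2:**
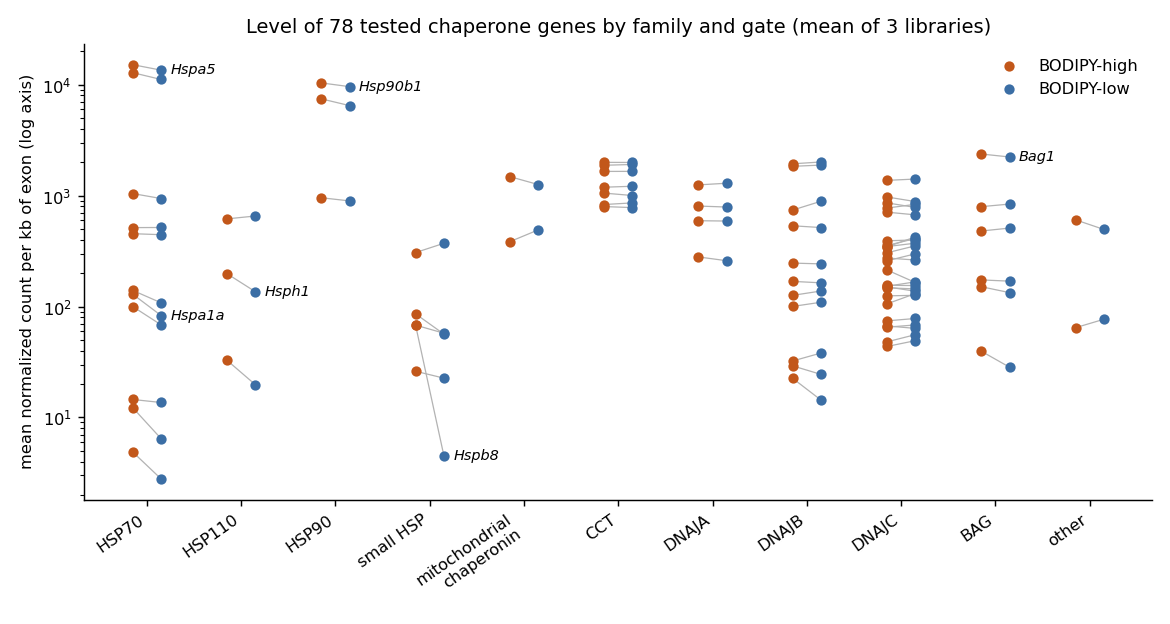
Mean normalized count per kb of exon (y axis, log scale) of the 78 tested members by family (x axis), with BODIPY-high on the left and BODIPY-low on the right of each family, a line joining the same gene and each point the mean of 3 libraries. The lines are close to level except for a few genes, of which Hspb8 has the steepest, at 67.5 in BODIPY-high and 4.50 in BODIPY-low libraries.

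The promoters of 6 members are printed as a description, and their part in the differences between libraries was not tested. As given below, Hspb8 was called between gates, and Hspa1a, Hspa1b, Hsph1 and Dnaja1 were called between library numbers. Hspe1 was called in neither test and held the longest run of matches, which it shares with Hspd1. HSF1 binds heat shock elements, which are alternating units GAA and TTC spaced by 2 bases. Matches were sought with no mismatch on both strands, from 250 bases before to 30 bases after the start in RefSeq (GRCm38.p6), as 3 units (GAANNTTCNNGAA or TTCNNGAANNTTC) and as 2 units (GAANNTTC or TTCNNGAA), where every match of 3 units also holds matches of 2. A gene with several listed starts was counted if any of its windows held a match. Of the 27025 genes in the promoter table, 0.622% held 3 units and 16% held 2. Of the 70 members found in it, 4 held 3 units (5.71%), namely Dnajb6, Hspd1, Hspe1 and Hsph1, and 17 held 2 (24.3%). A match is a description of the letters and not a shown binding site, and a missing match says only that these letters are not in this window. Capitals mark the matches in the lines that follow, each read from 5′ to 3′ on the strand of its gene.
Hspb8 promoter (chr5:116422835-116423114, minus strand): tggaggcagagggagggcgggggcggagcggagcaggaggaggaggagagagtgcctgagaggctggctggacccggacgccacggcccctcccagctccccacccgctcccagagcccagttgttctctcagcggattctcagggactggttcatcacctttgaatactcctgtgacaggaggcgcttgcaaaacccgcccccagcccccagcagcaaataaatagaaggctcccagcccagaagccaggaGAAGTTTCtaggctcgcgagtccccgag
Hspa1a promoter (chr17:34972127-34972406, minus strand): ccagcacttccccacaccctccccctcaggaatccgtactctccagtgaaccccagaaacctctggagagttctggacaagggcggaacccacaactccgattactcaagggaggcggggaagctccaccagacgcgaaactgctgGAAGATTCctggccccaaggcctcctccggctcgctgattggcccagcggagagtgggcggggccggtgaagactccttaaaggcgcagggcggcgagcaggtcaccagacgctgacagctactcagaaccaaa
Hspa1b promoter (chr17:34959209-34959488, minus strand): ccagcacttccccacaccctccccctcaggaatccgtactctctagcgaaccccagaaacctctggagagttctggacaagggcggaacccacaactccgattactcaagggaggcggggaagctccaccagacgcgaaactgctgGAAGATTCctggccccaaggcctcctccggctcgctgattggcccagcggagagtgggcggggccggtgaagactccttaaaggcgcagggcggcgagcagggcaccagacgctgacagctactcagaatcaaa
Hsph1 promoter (chr5:149636286-149636565, minus strand): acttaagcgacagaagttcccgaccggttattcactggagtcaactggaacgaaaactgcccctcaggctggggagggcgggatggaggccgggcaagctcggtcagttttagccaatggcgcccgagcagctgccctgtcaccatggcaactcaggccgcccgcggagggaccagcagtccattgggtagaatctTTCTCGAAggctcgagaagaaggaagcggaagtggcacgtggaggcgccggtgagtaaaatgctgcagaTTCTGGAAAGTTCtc
Dnaja1 promoter (chr4:40722218-40722497, plus strand): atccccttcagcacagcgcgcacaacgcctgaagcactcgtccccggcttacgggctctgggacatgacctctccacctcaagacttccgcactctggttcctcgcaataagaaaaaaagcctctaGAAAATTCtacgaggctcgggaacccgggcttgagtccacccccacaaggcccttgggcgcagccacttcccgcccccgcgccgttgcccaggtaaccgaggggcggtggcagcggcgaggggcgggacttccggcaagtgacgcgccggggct
Hspe1 promoter (chr1:55087898-55088177, plus strand): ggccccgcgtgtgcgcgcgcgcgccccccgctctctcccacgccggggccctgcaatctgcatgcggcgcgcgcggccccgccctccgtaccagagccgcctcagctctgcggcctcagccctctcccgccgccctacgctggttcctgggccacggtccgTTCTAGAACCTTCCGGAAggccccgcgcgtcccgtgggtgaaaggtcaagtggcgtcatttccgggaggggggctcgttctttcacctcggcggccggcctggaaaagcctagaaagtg

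The windows of Hspa1a and Hspa1b had 276 of 280 bases in common (98.6%) and the same match of 2 units, with 96 bases between it and the start. Hsph1 held a match of 3 units just after the start shown, 1 of its 2 listed starts, and a further match of 2 units before it, and Dnaja1 a match of 2 units in the window shown, which is that of 1 of its 3 listed starts. Among listed starts, a window with a match was chosen for printing over a window without. The run of 18 bases in Hspe1 also lies in the window of Hspd1, which is transcribed in the opposite direction. In Hspb8 the 1 match of 2 units lies just after the start. Hspb1, which was called in neither test, held 2 separate matches of 2 units, while Hspa4l, Bag3 and Dnajb1 held no match. No promoter window was found for Hspa8 or Hsp90aa1.

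Of the 5 tested genes placed among the small heat shock proteins by their symbol, 1 was called. Hspb8 (HSP22; chr5:116408491-116422864, minus strand, mm10) works with the cochaperone BAG3 to pass damaged protein to autophagy. It had 79.1, 184 and 132 normalized counts in BODIPY-high libraries 1, 2 and 3, against 6.58, 11.3 and 8.42 in BODIPY-low libraries 1, 2 and 3. These rest on 407 reads in the BODIPY-high and 25 reads in the BODIPY-low gate, and the gates did not overlap. The means were 132 ± 52.2 and 8.78 ± 2.40 (SD, n = 3 each), the log2 difference was 3.71 ± 0.48 (SE, 95% interval 2.63 to 4.79), and the adjusted p was 0.00859 by limma and 0.0111 by edgeR. The call was lost without BODIPY-high library 2 (adjusted p = 0.0854) or BODIPY-high library 3 (adjusted p = 0.0504), while the ratio of the means stayed between 12.04 and 17.98 with any 1 library left out. Hspb8 reached 10 normalized counts in 3 BODIPY-high libraries and 1 BODIPY-low library, so it passed the filter on low values mainly through the gate where it is high. No other gene overlapped its exons, and none of the 100-base windows of its longest transcript was found in another gene. The markers of choroid plexus and border-associated macrophages listed above moved with the gate in the same direction as Hspb8. Astrocyte markers did so in part, with 3 of 7 called higher and estimates from -0.04 to 3.35. Their sums overlapped between gates (10497.5 to 13334.5 in BODIPY-high, 10809 to 11866 in BODIPY-low libraries). The part of these cells in the difference of Hspb8 was not tested.

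The other small heat shock proteins did not pass the test. Hspb1 (HSP25), a heat-inducible member, had 78.1, 90.7 and 96.6 normalized counts in BODIPY-high and 64.7, 46.4 and 63.2 in BODIPY-low libraries. Its libraries did not overlap between gates, yet the log2 difference of 0.61 ± 0.32 had an adjusted p of 0.599, and 42.7% of the windows of its transcript were shared with the processed pseudogene Hsp25-ps1. Hspb3, known from muscle, leaned the other way, with 240.2, 238 and 240.0 in BODIPY-high and 279, 296 and 296 in BODIPY-low libraries (log2 difference -0.28 ± 0.18, adjusted p = 0.714). Its values were almost equal within each gate and did not overlap between them. Hspb6, a relative of Hspb1 first described in muscle, had 127, 168 and 174 in BODIPY-high and 82.3, 143 and 171 in BODIPY-low libraries, and its gates overlapped (log2 difference 0.29 ± 0.33, adjusted p = 0.863). Hspb11, placed here by its symbol alone, had an estimate of 0.19, and Hspb7 and Hspb9 had at most 3.99 normalized counts in any library. The alpha-crystallin Cryab belongs to the same protein family but lies outside the symbol rule. It was called, with 119, 166 and 292 normalized counts in BODIPY-high and 28.5, 17.5 and 48.4 in BODIPY-low libraries (log2 difference 2.59 ± 0.48, adjusted p = 0.0304), although the call was lost without BODIPY-high library 2 or 3 or BODIPY-low library 1 or 2 (adjusted p of 0.0875 to 0.147). Cryab is also a product of oligodendrocytes and astrocytes, of whose markers 1 of 7 and 3 of 7 were called higher. The part of these cells in the difference of Cryab was not tested.

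In the HSP110 family, the nucleotide exchange factors of HSP70, no member was called by the test of the gate alone. Hsph1 and Hspa4l were called higher in BODIPY-high with the library number as a block, and Hspa4 was not. Both were higher in the BODIPY-high library of every number. Other members were too, among them Hspa5, Hspa8, Hspa9, Hspd1 and Bag6, and the share of all genes that were so was not counted. Hsph1 (HSP105; chr5:149614287-149636376, minus strand), the heat-inducible member, had 988, 1159.6 and 2157 normalized counts in BODIPY-high libraries 1, 2 and 3, against 549.7, 909.6 and 1506 in BODIPY-low libraries 1, 2 and 3. The libraries numbered 3 were high in both gates and the gates overlapped, and the difference over all libraries was 0.57 ± 0.38 on the log2 scale (adjusted p = 0.713). Within numbers 1, 2 and 3 the log2 difference was 0.84, 0.35 and 0.52, and with the number as a block the adjusted p was 0.0273. Hspa4l (OSP94; chr3:40744495-40796103, plus strand) had 288, 373 and 496 in BODIPY-high and 176, 211 and 311 in BODIPY-low libraries, for a log2 difference of 0.73 ± 0.28 (adjusted p = 0.386). Its differences within numbers 1, 2 and 3 were 0.71, 0.82 and 0.67, close to equal, and the adjusted p with the block was 0.0428. With the block, Hsph1 passed without number 2 (adjusted p = 0.0301) and not without number 1 (0.0824) or 3 (0.128), and Hspa4l passed in none of the 3 such fits (0.0667 to 0.190). Hspa4 (APG-2), the most abundant member per length, had 3107, 3479 and 3647 in BODIPY-high and 3176, 3849 and 3835 in BODIPY-low libraries (log2 difference -0.08 ± 0.11, adjusted p = 0.889). Markers of some other cells moved with the gate, as described above, and their part in these differences was not tested.

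**Figure D3:**
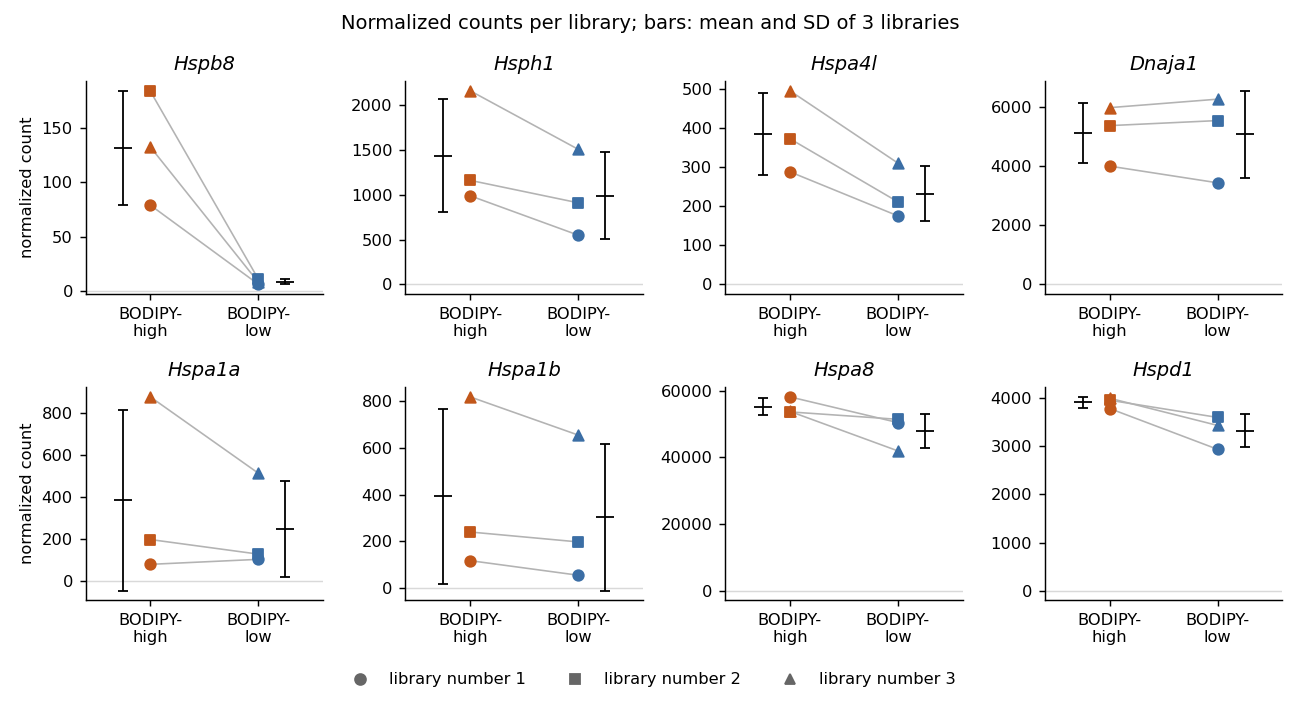
Normalized counts (y axes, linear from 0) of 8 members in each library, with BODIPY-high on the left and BODIPY-low on the right, shapes and grey lines marking the library number and black bars the mean and SD of 3 libraries. Hspb8 separates by gate and was called, while Hspa8 and Hspd1 do not overlap between gates but were not called. Hspa4l and Hsph1 are higher in BODIPY-high within each number, as are Hspb8, Hspa8, Hspd1 and Hspa1b. Hspa1a, Hspa1b and Dnaja1 differ between numbers and overlap between gates.

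Among the HSP70 genes, which hold and refold proteins in the cytosol and the organelles, none of 11 tested was called. By the test of the gate alone, 0 had an unadjusted p under 0.05. With the library number as a block, the unadjusted p (limma) was 0.025 for Hspa8 and 0.0323 for Hspa1b. Neither was called with the block (adjusted p = 0.195 and 0.224). Smaller unadjusted p with the block (limma) were found outside the family for Dnajb9 (0.0146, lower in BODIPY-high), Hspd1 (0.0156) and Hspbp1 (0.0228), which were not called either. Of the 11 HSP70 estimates, 10 were positive (median log2 difference 0.21, against -0.0043 for all genes). Together the family took 0.351 ± 0.0147% of normalized counts in BODIPY-high and 0.306 ± 0.0282% in BODIPY-low libraries (SD, n = 3 each). Hspa8, the constitutive cytosolic form, had 58178, 53666 and 53823 normalized counts in BODIPY-high and 50456, 51436 and 41960.1 in BODIPY-low libraries. The gates did not overlap, but the log2 difference of 0.21 ± 0.11 did not pass (adjusted p = 0.607), and 31.6% of the windows of its transcript are shared with other genes. Hspa5 (BiP, GRP78), the endoplasmic reticulum form and the standard readout of unfolded protein there, had 70322, 63055 and 58868 in BODIPY-high and 61162, 61411 and 49121 in BODIPY-low libraries. Its gates overlapped, and the interval of its log2 difference ran from -0.12 to 0.45 (estimate 0.17, adjusted p = 0.764). Hspa9 (mortalin), the mitochondrial form, had 4116, 4552 and 4821 in BODIPY-high and 3788, 3964 and 4420.2 in BODIPY-low libraries (log2 difference 0.15 ± 0.10, adjusted p = 0.723). Hspa2, best known from the testis, had 204, 264 and 324 in BODIPY-high and 195, 237 and 109.5 in BODIPY-low libraries (log2 difference 0.59 ± 0.33, adjusted p = 0.619). The highest estimate of the family, 1.57 ± 0.85 for the testis gene Hspa1l (adjusted p = 0.608), came from few reads, with 40.0, 23.9 and 26.7 in BODIPY-high and 3.29, 39.2 and 5.26 in BODIPY-low libraries, and 71.9% of its exon bases overlap a gene on the other strand. The remaining members, Hspa12a, Hspa12b, Hspa13 and Hspa14, had estimates of 0.02, 0.61, -0.03 and 0.03.

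The inducible pair Hspa1a and Hspa1b varied more between library numbers than between gates. The genes lie next to each other on chromosome 17 (chr17:34969190-34972156, minus strand and chr17:34956436-34959238, minus strand, mm10). Of the 2868 windows of 100 bases of Hspa1a, 1350 (47.1%) are also found in Hspa1b. Reads from these windows may be left out of the counts or split between the genes, so each single value and their sum are uncertain. Exons of Gm20481 on the other strand cover 19% of the exon bases of Hspa1a. Hspa1a had 77.1, 195 and 876 normalized counts in BODIPY-high libraries 1, 2 and 3, against 101, 126 and 512 in BODIPY-low libraries 1, 2 and 3. Hspa1b had 118, 240.3 and 817 in BODIPY-high and 56.0, 198 and 654 in BODIPY-low libraries. For each gene, library 3 was the highest of its gate by a wide margin. Summed over the pair, the values were 195, 436 and 1692 in BODIPY-high and 157, 324 and 1166 in BODIPY-low libraries, so that number 3 exceeded number 1 by 8.67 times in the BODIPY-high and 7.43 times in the BODIPY-low gate. Within numbers 1, 2 and 3, the BODIPY-high sum was 1.24, 1.35 and 1.45 times the BODIPY-low sum. Between gates the log2 difference was 0.34 ± 0.86 for Hspa1a (adjusted p = 0.948) and 0.55 ± 0.89 for Hspa1b (adjusted p = 0.911), with 95% intervals of -1.62 to 2.30 and -1.47 to 2.58, and both estimates turned negative without BODIPY-high library 3 or BODIPY-low library 1. These intervals include the spread between library numbers. With the number as a block, the SE was 0.26 for Hspa1a and 0.22 for Hspa1b. Neither gene was called with the block (limma, adjusted p = 0.556 and 0.224).

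A test between library numbers, with the gate as the other term, was added after this had been seen. It called 4 of 78 tested members, Hspa1a, Hspa1b, Hsph1 and Dnaja1, where all genes gave 4.48% (572 of 12767). The adjusted p (limma F test) was 0.00102 for Hspa1b, 0.0031 for Hspa1a, 0.00435 for Hsph1 and 0.0105 for Dnaja1, and all 4 passed with any 1 library left out (up to 0.0423). Without the gate as a term none of the 4 passed (0.0736 to 0.237), and 6 of all genes did. Dnaja1 (HDJ2), the J-domain partner of cytosolic HSP70, had 4007, 5378 and 5987 normalized counts in BODIPY-high and 3442, 5549 and 6274 in BODIPY-low libraries, so libraries 1 were the low ones of both gates, while the difference between gates was 0.04 ± 0.23 on the log2 scale. Of its windows, 14.8% are shared with other genes. In Hsph1, library 3 exceeded library 1 by 2.18 times in the BODIPY-high and 2.74 times in the BODIPY-low gate. Other genes of the heat response did not pass between numbers: the adjusted p was 0.127 for Hspe1, 0.362 for Dnajb1, 0.474 for Hsp90aa1, 0.453 for Bag3, 0.452 for Hspd1 and 0.892 for Hspb1.

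**Figure D4:**
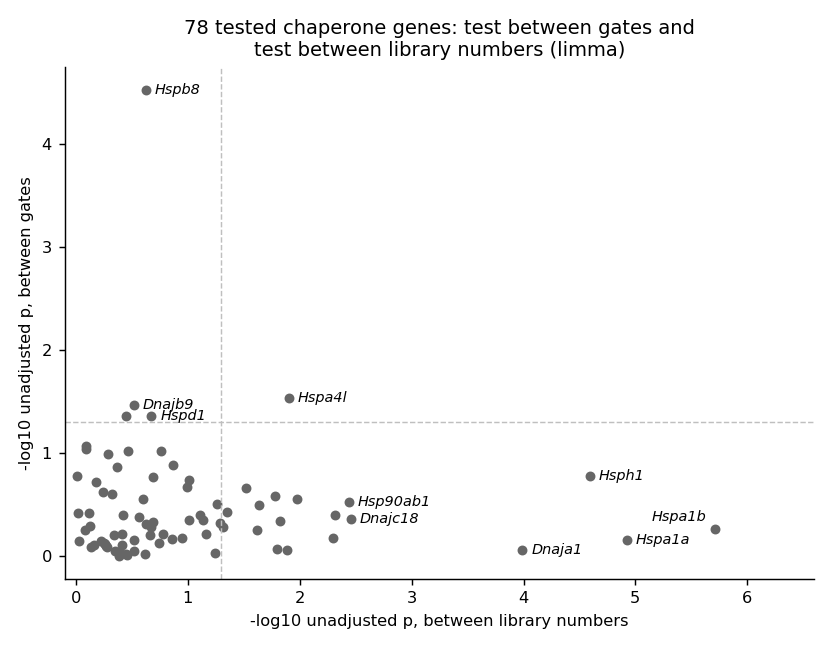
Unadjusted p of the test between library numbers (x axis) against that of the test between gates (y axis), both as -log10 p from limma, for the 78 tested members, with dashed lines at 0.05. Hspb8 stands alone at the top, and Hspa1b, Hspa1a, Hsph1 and Dnaja1 lie at the far right at a low height.

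Immediate early genes, which respond within minutes to cell isolation as well as to signals in the tissue, differed between the same libraries. Of 20 tested, 13 passed the test between numbers, and 0 were called between gates (limma, with 2 higher and 1 lower at an unadjusted p under 0.05 and 0 by edgeR or DESeq2). With the library number as a block, 1 was called lower, Rhob, with 6158, 4485 and 13929.6 normalized counts in BODIPY-high and 9835, 7497 and 16348 in BODIPY-low libraries (adjusted p = 0.012, log2 differences of -0.68, -0.74 and -0.23 within numbers 1, 2 and 3). Summed, they had 203089.5, 188116 and 377884 normalized counts in BODIPY-high libraries 1, 2 and 3, against 231321, 232435.0 and 336302 in BODIPY-low libraries. Fos, the best known of them, had 8166, 10218 and 49161 in BODIPY-high and 8129.8, 15144 and 35142 in BODIPY-low libraries (adjusted p between numbers = 5.70e-04). Library 3 was thus the highest of both gates for Fos as for Hspa1a, Hspa1b and Hsph1. Markers of border-associated macrophages were also highest in library 3 of both gates (10 of 10), as were 6 of 10 markers of monocytes and neutrophils, with sums of 51057, 82889 and 194739 in BODIPY-high and 44314, 129104 and 135845 in BODIPY-low libraries. Other markers went the other way. Microglial sums were lowest in library 3 of both gates (2468817, 2264524.5 and 1809080 in BODIPY-high, 2704315, 2376622.5 and 2308100 in BODIPY-low), with Cx3cr1 called between numbers. Endothelial sums were too (2287, 2146 and 1489 in BODIPY-high, 2726, 2035 and 1629 in BODIPY-low), with 3 of 9 markers called between numbers. The share of all genes highest in library 3 of both gates was not counted. The part of cell handling or of other cells in the differences between numbers was not tested, and the labels do not say what a number stands for.

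**Figure D5:**
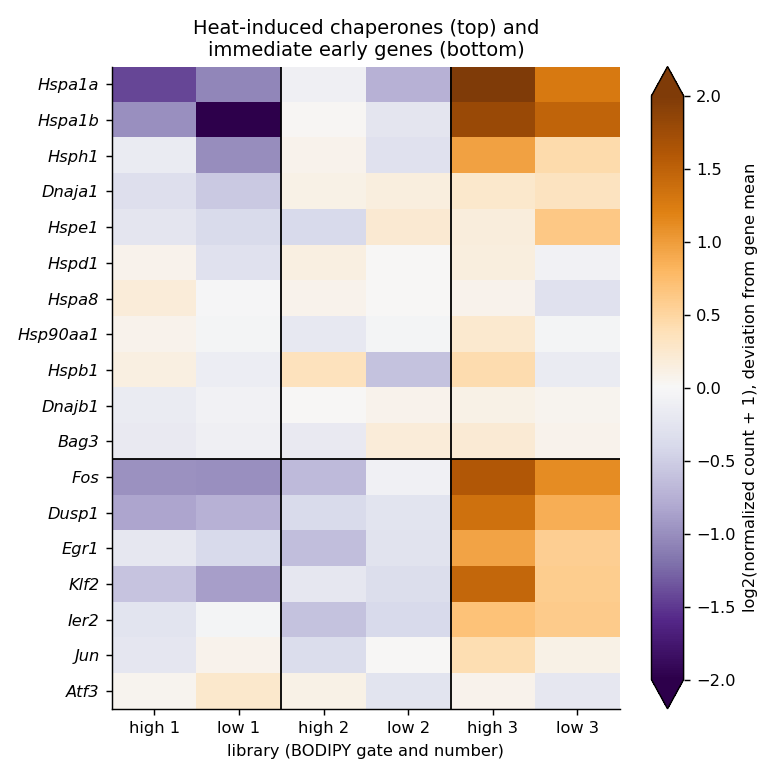
Deviation of log2(normalized count + 1) from the mean of the gene over 6 libraries (colour scale in log2 units) for 11 heat-inducible or constitutive chaperone genes (rows above the line) and 7 immediate early genes (rows below it), with columns for BODIPY-high and BODIPY-low libraries of number 1, 2 and 3. Hspa1a, Hspa1b, Hsph1 and Fos are above their mean in both libraries of number 3, while Hspa8, Hspd1, Dnajb1 and Bag3 vary little.

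HSP90 genes, which mature kinases and nuclear receptors, did not pass in any case (0 of 3, and 0 at an unadjusted p under 0.05), with log2 differences of 0.08 to 0.19. Hsp90ab1 had 27261, 17383 and 22429 normalized counts in BODIPY-high libraries 1, 2 and 3, against 23130.0, 18241 and 16911 in BODIPY-low libraries 1, 2 and 3 (log2 difference 0.19 ± 0.17, adjusted p = 0.819). Hsp90b1 (GRP94) had 47610.2, 39369 and 38536 in BODIPY-high and 41625, 35922 and 38621 in BODIPY-low libraries (log2 difference 0.11 ± 0.12, adjusted p = 0.852). The gates overlapped for both of these constitutive genes. The heat-inducible Hsp90aa1 had 3814, 3179 and 4288 in BODIPY-high and 3527, 3524 and 3512 in BODIPY-low libraries, for a log2 difference of 0.08 ± 0.12 (95% interval -0.18 to 0.35, adjusted p = 0.894). Its BODIPY-low libraries were nearly equal and lay within the range of the BODIPY-high ones, and 47.5% of its windows are shared with other genes, chiefly Gm12346.

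The chaperonins, which fold proteins inside a closed barrel, had no called member (0 of 9 tested). Of the mitochondrial pair, Hspd1 (HSP60), the barrel, had 3787, 3959 and 4000.4 normalized counts in BODIPY-high and 2938, 3601 and 3435 in BODIPY-low libraries. These did not overlap, and the log2 difference was 0.24 ± 0.10 (95% interval 0.01 to 0.47, adjusted p = 0.465). Hspe1 (HSP10), the lid, had 528, 472 and 701 in BODIPY-high and 478, 727 and 964 in BODIPY-low libraries, a difference of -0.31 ± 0.26 (adjusted p = 0.793) with overlapping gates. Exons of the pair overlap on opposite strands, and 26.9% of the windows of Hspd1 are shared with other genes, chiefly the pseudogene Hspd1-ps3, so reads there could not be assigned with certainty. The 7 tested subunits of CCT, which folds actin and tubulin, had log2 differences of -0.05 to 0.07 and adjusted p from 0.856 to 0.998, with 0 at an unadjusted p under 0.05. Cct7 was the 1 subunit without overlap, with 7043, 7228 and 7146 in BODIPY-high and 6848, 6615 and 6909 in BODIPY-low libraries (log2 difference 0.07 ± 0.08). Cct8, the highest of them per length, had 5889, 6460.1 and 6128 in BODIPY-high and 5772, 6266 and 6404 in BODIPY-low libraries, a difference of 0.00 ± 0.09 that turned negative under other scalings (to -0.0088). Cct2 and Cct3 had estimates of -0.05 and 0.03. Summed, the CCT genes took 0.0989 ± 0.00423% of normalized counts in BODIPY-high and 0.0968 ± 0.00497% in BODIPY-low libraries (SD, n = 3 each). Cct6b, a testis subunit, was at 4.004, 4.99 and 5.52 in BODIPY-high and 26.3, 6.19 and 12.6 in BODIPY-low libraries and was not tested.

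The J-domain proteins, which bring substrates to HSP70 and start its ATP cycle, had 4, 11 and 24 tested members in the groups DNAJA, DNAJB and DNAJC, and none was called by limma, edgeR or DESeq2. In the DNAJA group, which resembles the bacterial DnaJ, the log2 differences ran from -0.05 to 0.11. Dnaja2 had 3525, 3666 and 3963 normalized counts in BODIPY-high and 3534, 3986 and 4021 in BODIPY-low libraries, and the mitochondrial Dnaja3 (TID1) had 3069, 3091 and 3289.5 in BODIPY-high and 3166, 2907 and 3182 in BODIPY-low libraries. Both sets overlapped between gates (log2 differences -0.05 and 0.03, adjusted p = 0.931 and 0.959), as did Dnaja4 (log2 difference 0.11), of whose exon bases 44.1% are also covered by Wdr61 on the other strand. In the DNAJB group, 1 of 11 had an unadjusted p under 0.05. This was Dnajb9 (ERdj4), a target of the endoplasmic reticulum stress sensor IRE1 that helps to keep it inactive, with 1778, 1902 and 1986 in BODIPY-high and 2187, 2144 and 2474 in BODIPY-low libraries. All BODIPY-high values lay below all BODIPY-low values, but the log2 difference of -0.26 ± 0.11 (95% interval -0.50 to -0.02) had an adjusted p of 0.412. Dnajb11 (ERdj3), also of the endoplasmic reticulum, had 7325, 6231 and 5234 in BODIPY-high and 6955, 6993 and 5569 in BODIPY-low libraries with overlap (log2 difference -0.06 ± 0.14, adjusted p = 0.945). The heat-inducible Dnajb1 (HSP40) had 5324, 5974 and 6357 in BODIPY-high and 5695, 6224 and 6198 in BODIPY-low libraries (log2 difference -0.04 ± 0.10, 95% interval -0.26 to 0.18, adjusted p = 0.948). Dnajb4 and Dnajb14 had estimates of -0.14 and -0.23.

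The DNAJC group, a mixed set that shares little but the J domain, had 24 tested members with log2 differences of -0.30 to 0.35 and 0 at an unadjusted p under 0.05. Dnajc9, a cochaperone of histones, had 386, 638 and 498 normalized counts in BODIPY-high and 365, 410.5 and 398 in BODIPY-low libraries (log2 difference 0.35 ± 0.21, adjusted p = 0.667). At the other end stood Dnajc25, with 456, 499.5 and 486 in BODIPY-high and 674, 570.3 and 538 in BODIPY-low libraries (log2 difference -0.30 ± 0.16, adjusted p = 0.583), which did not overlap. Dnajc28 did not overlap either, with 995, 988 and 781 in BODIPY-high and 1004, 1177 and 1013 in BODIPY-low libraries (log2 difference -0.21 ± 0.14, adjusted p = 0.716). The 2 members of highest mean overlapped between gates. Dnajc3 (P58IPK), an endoplasmic reticulum cochaperone of Hspa5, had 7428, 7413 and 6324 in BODIPY-high and 7621, 7293 and 6842 in BODIPY-low libraries (log2 difference -0.04 ± 0.10, adjusted p = 0.944). Dnajc5, the cysteine string protein of secretory vesicles, had 5146, 4898 and 6072 in BODIPY-high and 5719, 5467 and 6216 in BODIPY-low libraries (log2 difference -0.11 ± 0.11, adjusted p = 0.827). Dnajc6 (auxilin), which strips clathrin from vesicles, was not tested, with 1.00, 3.99 and 39.5 in BODIPY-high libraries and 0 in all BODIPY-low libraries. Most of its reads came from BODIPY-high library 3, and a count of 0 allows up to 3 reads, or 3.09 to 3.29 normalized counts in a BODIPY-low library. Dnajc5b had 3 reads in BODIPY-high library 3 and 0 in the other libraries. Dnajc22 was at 0 in all BODIPY-high libraries, against 0, 12.4 and 4.21 normalized counts in BODIPY-low libraries, and was not tested.

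None of the 6 BAG genes, which bind HSP70 and release its nucleotide, was called, and 0 had an unadjusted p under 0.05. Bag3, the heat-inducible partner of Hspb8 in selective autophagy, had 1109, 1117 and 1459 normalized counts in BODIPY-high libraries 1, 2 and 3, against 1178, 1424 and 1316 in BODIPY-low libraries 1, 2 and 3. Its gates overlapped, and the log2 difference of -0.10 ± 0.14 had a 95% interval of -0.42 to 0.23 (adjusted p = 0.904). Bag2 had 118, 117 and 128 in BODIPY-high and 109, 58.8 and 92.7 in BODIPY-low libraries without overlap (log2 difference 0.52 ± 0.32, adjusted p = 0.676). Bag1, the most abundant BAG gene, had 2871, 3346 and 3380.5 in BODIPY-high and 2784, 2913 and 3329 in BODIPY-low libraries (log2 difference 0.09 ± 0.11, adjusted p = 0.876). Bag5 and Bag6 had estimates of -0.08 and 0.18, with overlapping gates. Hspbp1, another exchange factor of HSP70, was chosen for naming after its values were seen and had 1089, 1097 and 1245 in BODIPY-high and 907, 899 and 1004 in BODIPY-low libraries (log2 difference 0.29 ± 0.12, adjusted p = 0.463).

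Partners of these chaperones that lie outside the symbol rule were not called either between gates. None of 8 HSP70 partners (median log2 difference 0.01), 15 HSP90 cochaperones (-0.02), 10 partners of the chaperonins (-0.08), 4 tested heat shock factors and regulators (-0.37) and 8 mitochondrial proteases and disaggregases (0.03) was called by limma, edgeR or DESeq2, beside a median of -0.0043 for all genes. At an unadjusted p under 0.05 these lists had 0, 0, 0, 0 and 1 member, the last being Lonp1, the matrix protease, with 1416, 1283 and 1515 normalized counts in BODIPY-high and 1078, 1127 and 1042 in BODIPY-low libraries (log2 difference 0.37 ± 0.12, adjusted p = 0.223). Hsf1, the master factor of the heat shock response, had 1367, 1260.3 and 1293 in BODIPY-high and 1175, 1415 and 1224 in BODIPY-low libraries (log2 difference 0.04 ± 0.12, adjusted p = 0.951). Its level overlapped between gates, and the lowest estimates of its list, those of Hsf2 and Hsf2bp, did not pass: Hsf2 had 52.0, 68.8 and 45.1 in BODIPY-high and 132, 66.0 and 73.7 in BODIPY-low libraries, and Hsf2bp had 42.0, 24.9 and 31.3 in BODIPY-high and 56.0, 88.7 and 42.1 in BODIPY-low libraries. Chordc1, a cochaperone of HSP90, was the 1 gene of these lists to pass the test between library numbers (adjusted p = 0.0479, and up to 0.31 with 1 library left out), with 1917, 2616 and 2388 in BODIPY-high and 1976, 2897 and 2930.3 in BODIPY-low libraries.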

How the data were processed

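RNA was sequenced from 3 BODIPY-high and 3 BODIPY-low samples. Quality control used FastQC 0.11.4, and mapping to mm10 and counting per gene used STAR 2.5.3a, followed by DESeq2 with standard settings, per the series' design text. The submitters' processing notes list mm9 as well as mm10. For counting, the annotation and the strand column are not given in the sources used here. Each deposited signal value is, judged by the values, a read count of a gene in a library after division by the library's size factor: all values were whole multiples of 1 step within 0.05 of a read, and dividing by the step gave 34899413 to 39220494 reads per library. Of the 15912 genes, 50 were at 0 in all libraries and 23 names had been turned into dates. Libraries held reads of 14590 to 15088 genes in the BODIPY-high and 14031 to 14193 genes in the BODIPY-low gate. No 2 libraries of the same gate agreed within sampling noise (chi-square per degree of freedom of at least 29.1), and libraries of different gates were not compared in this way. A count of 0 allows up to 3 reads, and this floor covers counting error only, since reads copied by PCR are not independent molecules.

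Differences were tested with limma-trend (limma 3.58.1, R 4.3.3), as a two-sided test of the gate alone on the scale log2(normalized count + 1), for 12767 genes with at least 10 normalized counts in at least 3 of 6 libraries. This scale understates the change of genes with few reads. P-values were adjusted by Benjamini-Hochberg over all genes tested, and a call needs an adjusted p under 0.05. Alternatives were a pseudocount of 0.5 or 5, no filter or a filter of 50, TMM scaling, edgeR 4.0.16 and DESeq2 1.42.0 on recovered reads, the library number as a block, and each library left out. The code was tested on simulated data. The labels number libraries 1 to 3 in each gate. Same-numbered libraries deviated together (correlations of 0.244, 0.354 and 0.363), and the block treats the numbers as pairs. The main test does not, so the SE, intervals and adjusted p printed without mention of the block ignore this pairing. For Hsph1 the SE was 0.12 with the block and 0.38 without, and for Hspb1 it was 0.32 in both fits. The blocked value is printed where it changes a call, and also for Hspa8, Hspa1a, Hspa1b, Dnajb9, Hspd1 and Hspbp1. The test between numbers, and the fits that leave out a number, were added after seeing the data.

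The members and lists were chosen with earlier results of these data known. Named members were those called, the 3 of smallest p and the 2 of highest mean in each family, and a fixed set of well-known genes, which gave 42. From the lists outside the rule, called members and the 2 of smallest p could be named. Other genes were named after their values were seen, among them the untested members, Hspbp1, Hspb11, Hsf1, Fos, Rhob, Chordc1 and the smaller HSP70 members. Levels per kb used exon lengths of GENCODE M21, where all 85 symbols were found. Promoters came from RefSeq (GRCm38.p6), with 70 symbols matched.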

Additional observations from a re-analysis of the deposited data

How the results depend on the processing

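Of 587 values of 42 named members under 14 alternatives, 560 kept their direction and side of the threshold, 23 changed sign in genes that were not called, Hspb8 lost its call without BODIPY-high library 2 or 3, and Hsph1 and Hspa4l gained one with the library number as a block. The block changed no other member's call. For all genes, 259 higher and 3 lower became 131 and 1 with a filter of 50, 222 and 1 with edgeR, 464 and 32 with DESeq2 and 558 and 59 with the block, and with 1 library left out they ran from 15 to 271 higher and 0 to 2 lower. Leaving out number 1, 2 or 3 under the block gave 702, 346 and 279 higher and 80, 33 and 21 lower. Members called higher numbered 3 with the block, 0 to 1 with 1 library left out, and 1, 2 and 1 under the block without number 1, 2 or 3. The test between numbers called 1253 genes and 8 members with a DESeq2 likelihood ratio test, 6 genes and 0 members without the gate term, and 232 to 961 genes and 5 to 7 members with 1 library left out. The causes were not tested.

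Log2 differences that changed sign were those of Cct8 (-0.0088 with TMM, -0.0096 with edgeR, -0.0006 with DESeq2) and Dnaja1 (-0.0047 with edgeR). With 1 library left out, the ranges that crossed 0 were -0.601 to 1.14 for Hspa1a, -0.334 to 1.43 for Hspa1b, -0.224 to 0.209 for Dnaja1, -0.0155 to 0.506 for Hspb6, -0.0161 to 0.200 for Hsp90aa1, -0.172 to 0.0311 for Bag5, -0.12 to 0.0303 for Cct2, -0.0416 to 0.0349 for Cct8, -0.0118 to 0.0533 for Dnaja3, -0.0973 to 0.0305 for Dnajb1, -0.180 to 0.0624 for Dnajb11 and -0.0836 to 0.0345 for Dnajc3. The median over members stayed between -0.0071 and 0.0464. Depth limits Hspb8 (25 reads in the BODIPY-low gate), Hspa1l, Cct6b and Dnajc6.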
